A study of Mus musculus with 12 samples.

Results

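Flg, Sprr1a, Crct1 and Lor are mouse genes of the epidermal differentiation complex, a cluster on chromosome 3 that encodes proteins of the outer epidermis. They were chosen as the probes that the platform annotation assigns to these symbols, 1 probe per gene, and make up 4 of 6774 named genes on 12 two-colour spotted cDNA arrays. The cells were primary skin keratinocytes from mice of the C57Bl/6NCr strain. At each calcium level, cells transduced with adenovirus for deltaNp63alpha (a p63 isoform without the N-terminal transactivation domain) were set against cells transduced for beta-galactosidase, and RNA was taken 41 h after transduction. The high calcium cultures had 0.12 mM calcium for 24 h, which the labels describe as inducing differentiation, and the low calcium cultures stayed at 0.05 mM for 24 h. All RNA came from adenovirus-transduced cells, so no sample here shows the effect of the virus alone. Each calcium level had 3 repeats, each hybridised on a forward array (deltaNp63alpha in Cy5) and a reversed array (deltaNp63alpha in Cy3). The labels call the arrays technical repeats and name no separate cultures or animals, so every p-value measures only the spread between these hybridisations.

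The cornified envelope is the crosslinked protein shell that replaces the plasma membrane of a keratinocyte as it leaves the granular layer. Transglutaminases join loricrin (Lor), the main envelope protein, to small proline-rich proteins such as Sprr1a, which act as bridges between other envelope proteins. Profilaggrin (Flg) is stored in keratohyalin granules and cut into filaggrin, which bundles keratin filaments, and Crct1 encodes a small cysteine-rich protein of the same cluster. p63 is the transcription factor that maintains the epidermal lineage, its deltaN isoforms are most abundant in basal cells, and a rise in extracellular calcium drives cultured mouse keratinocytes towards differentiation.

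In the order of the RefSeq annotation along the chromosome the genes run Lor, Sprr1a, Crct1 and Flg, with 14, 25 and 4 other protein-coding genes in the gaps. RefSeq promoter windows of build GRCm38.p6 were found for 3 of the 4 genes, and the 250 bases before the annotated start are printed because these include a pair of genes with falls and one, Lor, with no called difference. Capitals mark matches to the AP-1 letters TGANTCA and to the TATA box letters TATAAA, searched on both strands.
Flg (chr3:93273296-93273545, plus strand): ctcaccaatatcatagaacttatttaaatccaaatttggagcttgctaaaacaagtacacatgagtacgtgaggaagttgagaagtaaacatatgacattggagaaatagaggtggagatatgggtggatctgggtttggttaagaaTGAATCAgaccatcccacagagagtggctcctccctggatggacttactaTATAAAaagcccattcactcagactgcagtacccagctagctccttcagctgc
Sprr1a (chr3:92485882-92486131, minus strand): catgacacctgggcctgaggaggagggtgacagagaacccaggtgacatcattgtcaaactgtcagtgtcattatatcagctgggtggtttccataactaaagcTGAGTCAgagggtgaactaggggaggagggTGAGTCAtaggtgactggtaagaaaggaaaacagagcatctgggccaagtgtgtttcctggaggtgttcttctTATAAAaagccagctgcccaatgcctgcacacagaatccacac
Lor (chr3:92083143-92083392, minus strand): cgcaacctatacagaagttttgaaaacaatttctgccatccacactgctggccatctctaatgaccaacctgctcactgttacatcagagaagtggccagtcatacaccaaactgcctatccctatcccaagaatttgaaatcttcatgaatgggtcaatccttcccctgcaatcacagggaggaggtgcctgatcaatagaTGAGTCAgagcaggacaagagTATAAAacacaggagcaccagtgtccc

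The AP-1 letters began at -103 in Flg, at -146 and -116 in Sprr1a and at -48 in Lor, counted from the annotated start. The TATA box letters began at -53 in Flg, -43 in Sprr1a and -27 in Lor. Of 32851 promoter windows of the same length, 6.75% held the AP-1 letters, 12.4% the TATA box letters and 1.21% both. The C/EBP letters TTGCNNAA were found once in Flg, at -208, and in 9.56% of all windows. The 3 windows held no KLF letters GGGNGGG (44.8% of all windows), GRHL letters AACCGGTT (0.116%) or match to the p53 family motif searched (0.49%). No match overlapped another. Lor thus shared matches to the AP-1 and TATA box letters with Flg and Sprr1a. A link between these letters and the dye ratios was not tested. The AP-1 match read TGAGTCA in Sprr1a and Lor, but TGAATCA in Flg.

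Each deposited value compares the 2 dyes of an array on a log2 scale, with the numerator dye not stated, and holds no level of a gene. They were read here as Cy5 over Cy3, the usual order, so that a difference between the RNAs changes sign between forward and reversed arrays. In the labels deltaNp63alpha is channel 2 on forward and reversed arrays alike, which would favour ratios that already run the same way (kept signs), so the direction is assumed and not settled. Kept-sign values of the 4 genes are given together after their results, and those of the other called genes after the gene lists. If the ratios were Cy3 over Cy5, every pair value would keep its size and turn its sign, so that each fall described here would be a rise. "Fell" and "lower" therefore hold for the Cy5 over Cy3 reading. As deposited, all rows of dye-swap partner arrays had positive correlations (r = 0.12 to 0.71, 6 partner pairs, across rows), a description of values that share dye, print and label. The targeted gene did not settle the direction, and most of its values were lower, not higher, in deltaNp63alpha cells on this reading. Its single probe, Trp63, was below 0 on 4 of 5 forward arrays, among them -1.71 in high calcium repeat 3, and above 0 on 3 of 4 reversed arrays. It had pair log2 ratios of -0.59 and -0.51 in high calcium and of -0.78 and 0.45 in low calcium, and was not called (limma adjusted p = 0.446 and 0.919). No source used here says if the probe would detect the adenoviral transcript.

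Of the 6 arrays in the well-filled repeats (high calcium repeats 1 and 2, low calcium repeat 1), each had 7869 to 9096 of 9558 probes with a value. The 6 arrays of the sparse repeats (high calcium repeat 3, low calcium repeats 2 and 3) had 3366 to 6974, and mostly a wider spread: the robust SD of their values was 0.618 to 1.32, against 0.379 to 0.635. The number of arrays limits the precision of every value. Of the 8 keratinocyte markers listed for this report, 5 were on the arrays (Krt5, Krt15, Itga6, Itgb4 and Krt10) and had values on 4 to 9 of 12 arrays, but a ratio cannot show how abundant a marker is.

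Flg, Sprr1a and Crct1 changed sign with the dye on every array that measured them, and Lor did not. On forward arrays their values were all below 0, and on reversed arrays all above 0, so the orientations did not overlap. Sprr1a was below 0 on 6 of 6 forward arrays (-1.58 to -1.06) and above 0 on 5 of 5 reversed arrays (1.63 to 4.06). Flg was below 0 on 6 of 6 forward arrays (-3.27 to -0.65) and above 0 on 6 of 6 reversed arrays (0.96 to 3.998). Crct1 was below 0 on 4 of 4 forward arrays (-1.63 to -0.92) and above 0 on 5 of 5 reversed arrays (1.10 to 3.35). Lor was above 0 on 5 of 6 forward arrays (-0.052 to 0.51) and on 6 of 6 reversed arrays (0.0030 to 1.60). Of 4895 rows with at least 4 arrays of each orientation, 30 (0.613%) were below 0 on every forward and above 0 on every reversed array, against 3 of the 4 genes. The opposite pattern, above 0 on every forward and below 0 on every reversed array, was held by 13 rows (0.266%).

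**Figure D1:**
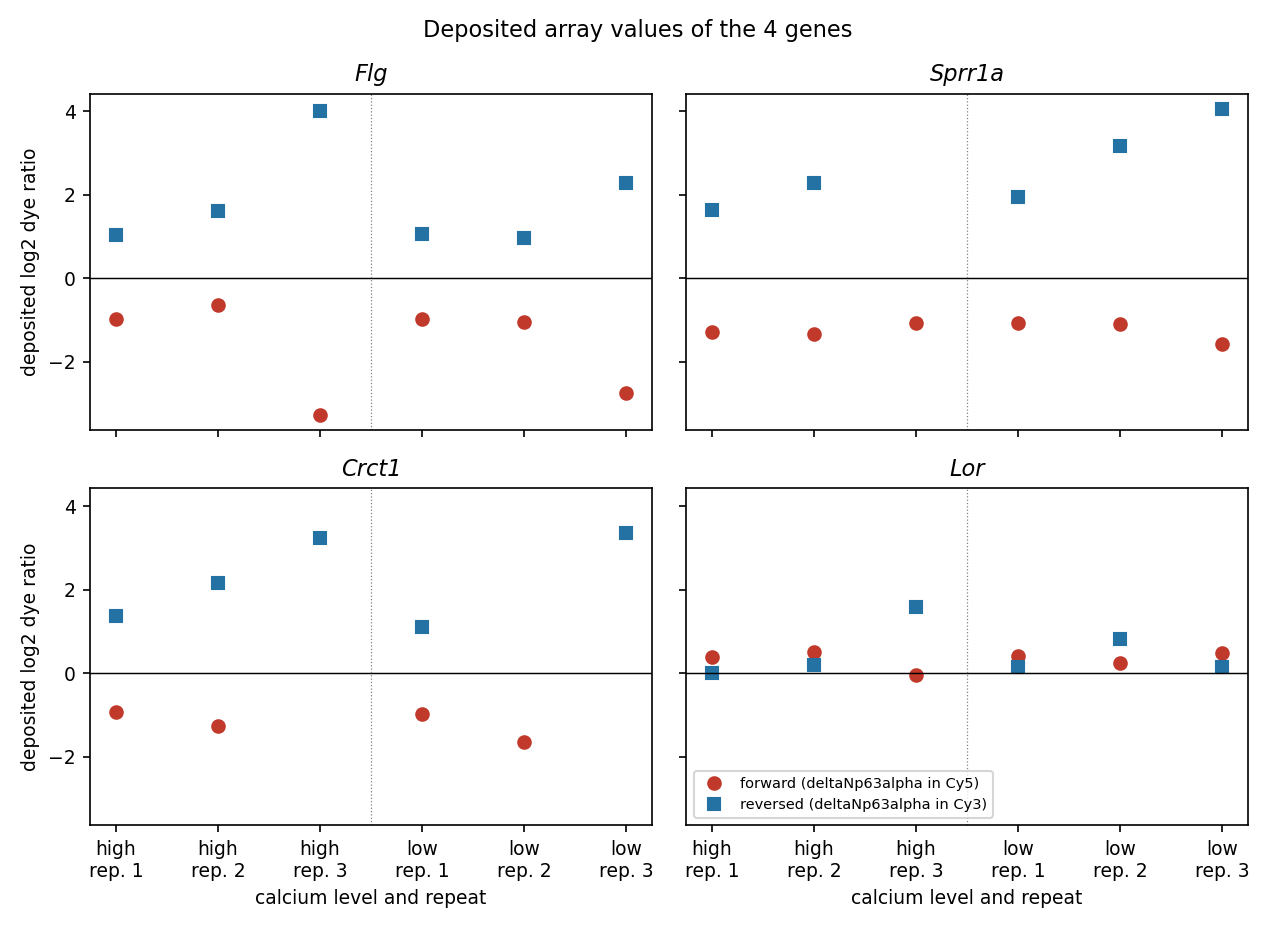
Deposited log2 dye ratio (vertical axis) of Flg, Sprr1a, Crct1 and Lor on each array, by calcium level and repeat (horizontal axis), with forward arrays as circles and reversed arrays as squares. The circles of Flg, Sprr1a and Crct1 all lie below 0 and their squares above 0, while 11 of the 12 values of Lor lie above 0.

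A pair value took the forward minus the reversed array, divided by 2, and is given as the log2 ratio of deltaNp63alpha over beta-galactosidase. Genes were called at a limma adjusted p under 0.05 over all rows tested. In high calcium 3 of the 4 genes fell, against 0.84% of 7263 rows called lower and 1.39% called in either direction. In low calcium 1 of the 3 that could be tested fell, against 0.387% of 4646 rows called lower and 0.409% called in either direction. None was called higher, against 0.551% of rows in high and 0.0215% in low calcium. Since the cultures were measured in bulk, fewer differentiating cells and less RNA per cell cannot be told apart.

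Sprr1a fell at both calcium levels. In high calcium its pair values were -1.46 and -1.81 in repeats 1 and 2, and in low calcium they were -1.51, -2.13 and -2.82 in repeats 1 to 3. All 5 complete pairs were below 0, and the ranges of the calcium levels overlapped. The mean of 2 high calcium pairs was -1.63 ± 0.26 (SE), a 3.10-fold fall with a limma adjusted p of 0.0102. The mean of 3 low calcium pairs was -2.15 ± 0.21 (SE), a 4.45-fold fall with a limma adjusted p of 0.000419. Sprr1a had the lowest value of all rows in low calcium repeats 2 and 3. In high calcium repeat 3 it was measured on the forward array alone, at -1.06, which no pair value uses. The call at both levels was lost after scaling arrays to one spread (limma adjusted p = 0.0524 in high and 0.216 in low calcium), when pairs with 1 array were kept (0.425 and 0.129) and under a trended, robust variance (0.415 and 0.0918). With forward arrays or reversed arrays alone the low calcium call stood and the high calcium call did not.

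Flg was lower in every pair at both levels and was called in high calcium only. Its pair values were -1.01, -1.13 and -3.63 in high calcium repeats 1 to 3 and -1.02, -1.003 and -2.52 in low calcium repeats 1 to 3. Repeats 1 and 2 were close to each other at both levels, and repeat 3 was the lowest at each level. The high calcium mean over 3 pairs was -1.93 ± 0.40 (SE), a 3.80-fold fall with a limma adjusted p of 0.0351. The low calcium mean over 3 pairs was -1.51 ± 0.40 (SE), which was not called, with a limma adjusted p of 0.191.

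High calcium repeat 3, a sparse repeat, set much of the size of the Flg fall: its arrays read -3.27 forward and 3.998 reversed. Flg was the lowest of 2421 rows in that pair, at -9.36 robust SDs of the pair, and the second lowest of 2894 rows in low calcium repeat 3, at -7.01. It lay at -4.58 and -3.32 robust SDs in high calcium repeats 1 and 2 and at -3.79 and -2.42 in low calcium repeats 1 and 2. The part of the sparse repeats in the size of the fall was tested only by leaving them out. Without high calcium repeat 3 the high calcium value was -1.07 and was not called (limma adjusted p = 0.0993), and the low calcium value, unchanged, was called (limma adjusted p = 0.0134). Without low calcium repeat 2 the high calcium call was also lost (limma adjusted p = 0.0512). It was lost as well on forward (0.145) and reversed arrays alone (0.180), with arrays as replicates (0.0826), when pairs with 1 array were kept (0.653), after scaling to one spread (0.0546), under the trended, robust variance (0.314) and with rows complete in all pairs (0.0539), all limma adjusted p. With the 3 well-filled pairs alone, chosen after seeing the data, Flg was at -1.07 in high calcium (limma adjusted p = 5.38e-05) and at -1.02 in low calcium (limma adjusted p = 0.00588), where the lone low calcium pair was assumed to vary like the others.

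Crct1 fell in high calcium and was lower in its only complete low calcium pair. In high calcium its pair values were -1.15 and -1.71 in repeats 1 and 2, and in low calcium it was at -1.04 in repeat 1. The high calcium mean over 2 pairs was -1.43 ± 0.21 (SE), a 2.69-fold fall with a limma adjusted p of 0.0102, and low calcium could not be tested with 1 pair. In the sparse repeats Crct1 was measured on 1 array of each pair: 3.23 on the reversed array of high calcium repeat 3, -1.63 on the forward array of low calcium repeat 2 and 3.35 on the reversed array of low calcium repeat 3. Turned to the same direction, these single values were larger in size than most of its well-filled ones. With arrays as replicates and a dye term, Crct1 was at -1.67 in high and -1.77 in low calcium, and neither was called (limma adjusted p = 0.104 and 0.175). The high calcium call was also lost on forward (0.137) and reversed arrays alone (0.166), when pairs with 1 array were kept (0.623), after scaling to one spread (0.0801) and under the trended, robust variance (0.343), all limma adjusted p.

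Lor showed no called difference at either calcium level. Its pair values were 0.20, 0.16 and -0.82 in high calcium repeats 1 to 3 and 0.13, -0.29 and 0.16 in low calcium repeats 1 to 3. The signs were mixed at each level, and the lowest value came from sparse high calcium repeat 3. The log2 ratio was -0.15 ± 0.19 in high calcium (SE, n = 3 pairs; limma adjusted p = 0.819; 95% interval -0.57 to 0.26) and 0.00 ± 0.19 in low calcium (SE, n = 3 pairs; limma adjusted p = 0.9998; 95% interval -0.42 to 0.42). These intervals leave room for a moderate difference in either direction. Without high calcium repeat 3 the high calcium value was 0.18.

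**Figure D2:**
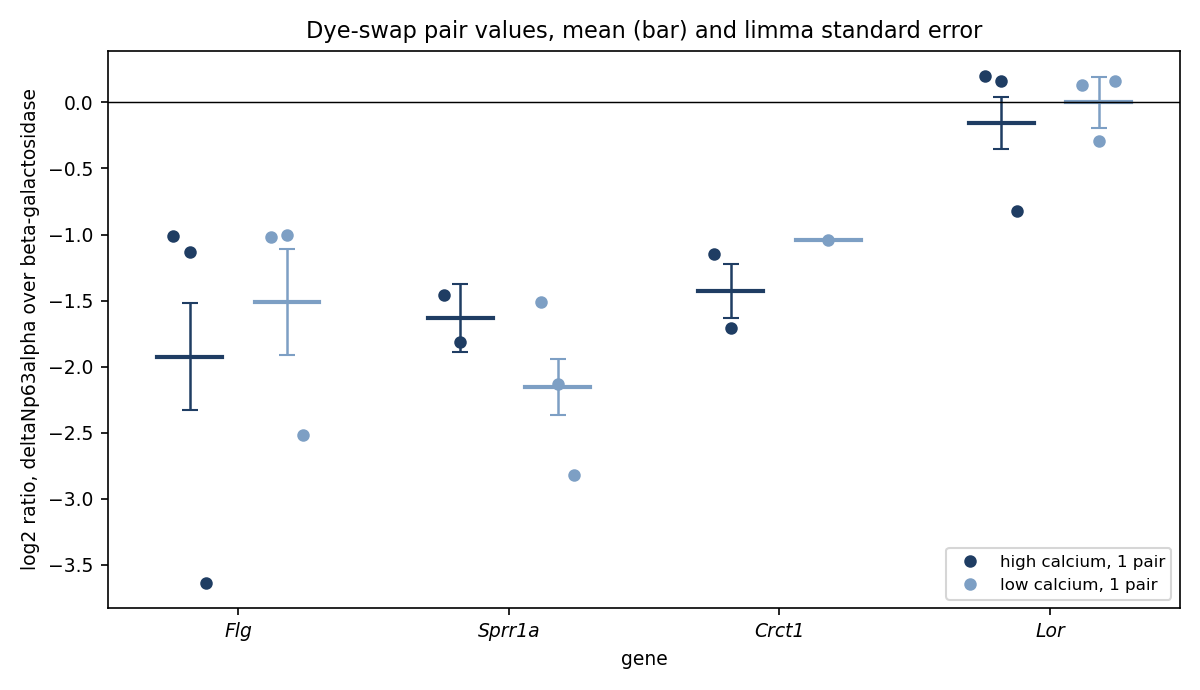
Log2 ratio of deltaNp63alpha over beta-galactosidase (vertical axis) of each gene (horizontal axis), with 1 point per dye-swap pair, high calcium left of low calcium, the mean as a bar and the limma standard error as whiskers where the level was tested. Sprr1a, Flg and Crct1 lie below -1.0 in every pair and Lor lies around 0, with 1 high calcium pair at -0.82.

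The kept-sign reading gives other values, because it averages the arrays of a pair as deposited. On that reading Flg was at 0.29 in high and -0.0735 in low calcium, Sprr1a at 0.32 and 0.91, Crct1 at 0.34 and 0.0630 (the last from 1 pair) and Lor at 0.44 and 0.38. Only Sprr1a in low calcium passed there, as higher (limma adjusted p = 0.0333), where 6.56% of low calcium rows were called higher and 9.86% lower, and 0% of high calcium rows were called by limma (1270 at an unadjusted p under 0.05). Partner arrays would then contradict each other in sign in 6 of 6 pairs of Flg, 5 of 5 of Sprr1a and 3 of 3 of Crct1. For Lor it is the turned reading under which partners differ in sign, in 5 of 6 pairs. The component shared by both orientations was above 0 in 6 of 6 pairs of Lor (mean 0.41 ± 0.21 SD) and in 5 of 5 pairs of Sprr1a (0.67 ± 0.45 SD). In Flg it was 0.11 ± 0.26 (SD, n = 6 pairs) and in Crct1 0.24 ± 0.19 (SD, n = 3 pairs). For Flg and Crct1 the shared component was therefore small beside the one that turns, and for Lor it was the larger.

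**Figure D3:**
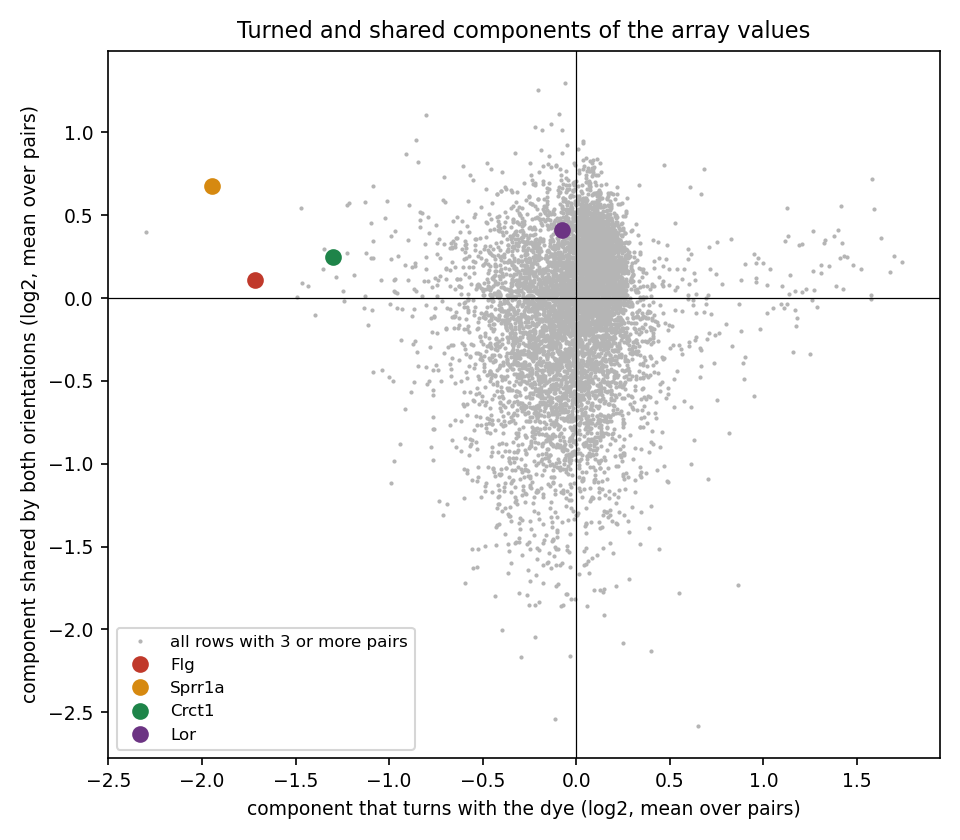
Component that turns with the dye (horizontal axis, log2, mean over pairs) against the component shared by both orientations (vertical axis, log2, mean over pairs) for 7506 rows with 3 or more complete pairs, with the 4 genes coloured. Sprr1a, Flg and Crct1 lie at the far left, at -1.95, -1.72 and -1.30, and Lor lies at -0.0772 with a shared component of 0.41.

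Over all complete pairs of both calcium levels, Flg averaged -1.72 ± 1.11 (SD, n = 6 pairs), and every pair was below 0 (exact two-sided sign-flip permutation test, unadjusted p = 0.03125, the smallest that 6 pairs allow). Sprr1a averaged -1.95 ± 0.56 (SD, n = 5 pairs; exact permutation p = 0.0625, the smallest that 5 pairs allow). Crct1 averaged -1.30 ± 0.36 (SD, n = 3 pairs), and 3 pairs cannot give a p under 0.25. Lor averaged -0.0772 ± 0.41 (SD, n = 6 pairs; exact permutation p = 0.8125). These genes were proposed with results of the same arrays known, so a shared direction is no independent evidence.

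Differences between the genes within the same pairs could not pass after adjustment with so few pairs. Flg was below Lor in 6 of 6 pairs, with a mean log2 difference of -1.64 ± 0.88 (SD; exact permutation p = 0.03125). Sprr1a was below Lor in 5 of 5 pairs, with a mean difference of -2.02 ± 0.56 (SD; exact permutation p = 0.0625). Flg was less reduced than Sprr1a in 5 of 5 pairs, with a mean difference of 0.61 ± 0.32 (SD; exact permutation p = 0.0625, the smallest possible). None of the 6 combinations passed after Benjamini-Hochberg adjustment over them (smallest 0.125). Each was already at the smallest p that its number of pairs allows, so none could have passed. The adjusted values therefore do not show whether the genes differ. Crct1 shared 3 pairs with each of the others, too few for such a test. Crct1 minus Lor was -1.87 to -1.17 in those pairs, and Sprr1a minus Crct1 was -0.47 to -0.11.

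For Flg, Sprr1a and Lor no difference between the calcium levels was called, and Crct1, with 1 low calcium pair, could not be tested. High minus low calcium was -0.41 ± 0.57 for Flg (SE; 95% interval -1.64 to 0.81), 0.52 ± 0.33 for Sprr1a (-0.20 to 1.24) and -0.16 ± 0.28 for Lor (-0.75 to 0.44). The limma adjusted p was 0.9997 for each, and 0% of 4209 rows were called for this difference (107 at an unadjusted p under 0.05). The Sprr1a difference was 0.84 without low calcium repeat 1 and 0.19 without low calcium repeat 3. It was below 0 after scaling to one spread (-0.36) and with the experiment ID run as a block or the well-filled pairs alone (-0.12 in both). The run was split here from the experiment IDs in the sample titles, and no label names it. Its earlier part is the well-filled pairs, which hold every complete high calcium pair of Sprr1a. These 2 settings therefore rest on the same pairs and are not separate evidence. The intervals are wide, so the effects are not shown to be equal. No array set one calcium level against the other, so the induction of these genes by calcium itself was not measured.

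Of the other 63 genes listed for the complex, 12 were on the arrays. In high calcium 1 of 11 tested fell and in low calcium 1 of 7, against 0.84% and 0.387% of all rows called lower. Their median log2 ratios were -0.31 and -0.67, against 0.0054 and 0.017 over all rows tested. S100a10, the partner of annexin A2, fell in high calcium (-1.11, from pairs at -1.04 and -1.19; limma adjusted p = 0.0219) and had no complete low calcium pair. S100a6, a calcium-binding protein of the S100 family, fell in low calcium (-0.99, from pairs at -0.97 and -1.02; limma adjusted p = 0.0450), and its high calcium value of -0.59 was not called. The difference between levels was not called for S100a6 and could not be tested for S100a10.

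The late cornified envelope genes Lce1l and Lce1m, whose proteins are added to the envelope late, were below 0 in every complete pair without passing. Lce1m was at -0.48, -0.88 and -2.54 in high calcium repeats 1 to 3 and at -0.80 and -2.04 in its low calcium pairs (limma adjusted p = 0.0761 and 0.194). Lce1l was at -0.17, -0.73 and -2.28 in high calcium and -0.89, -0.87 and -1.74 in low calcium (limma adjusted p = 0.122 and 0.167). As in Flg, their lowest values came from repeat 3 in high calcium and from the sparse repeats in low calcium. Sprr2a1, a relative of Sprr1a, had 1 complete pair, at -1.01 in high calcium repeat 2, and read 0.67 and 0.96 on the forward arrays of low calcium repeats 2 and 3. S100a9, a neutrophil and stressed-keratinocyte protein, was at -0.66 in high and -0.67 in low calcium and was not called. S100a8 was above 0 in its 2 complete pairs, both in high calcium (0.18 and 0.21), and was not called. In high calcium S100a13 was at 0.018, S100a1 at -0.23 and S100a4 at -0.31, none of them called. In low calcium S100a4 was at -0.011, and S100a13 (0.18) and S100a1 (-0.35) had 1 pair. S100a5 (0.24 in high and -0.0595 in low calcium) and 2310050C09Rik (-0.0176 and -0.0695) were near 0, like Lor. Cross-hybridisation between related genes of the complex was not tested.

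**Figure D4:**
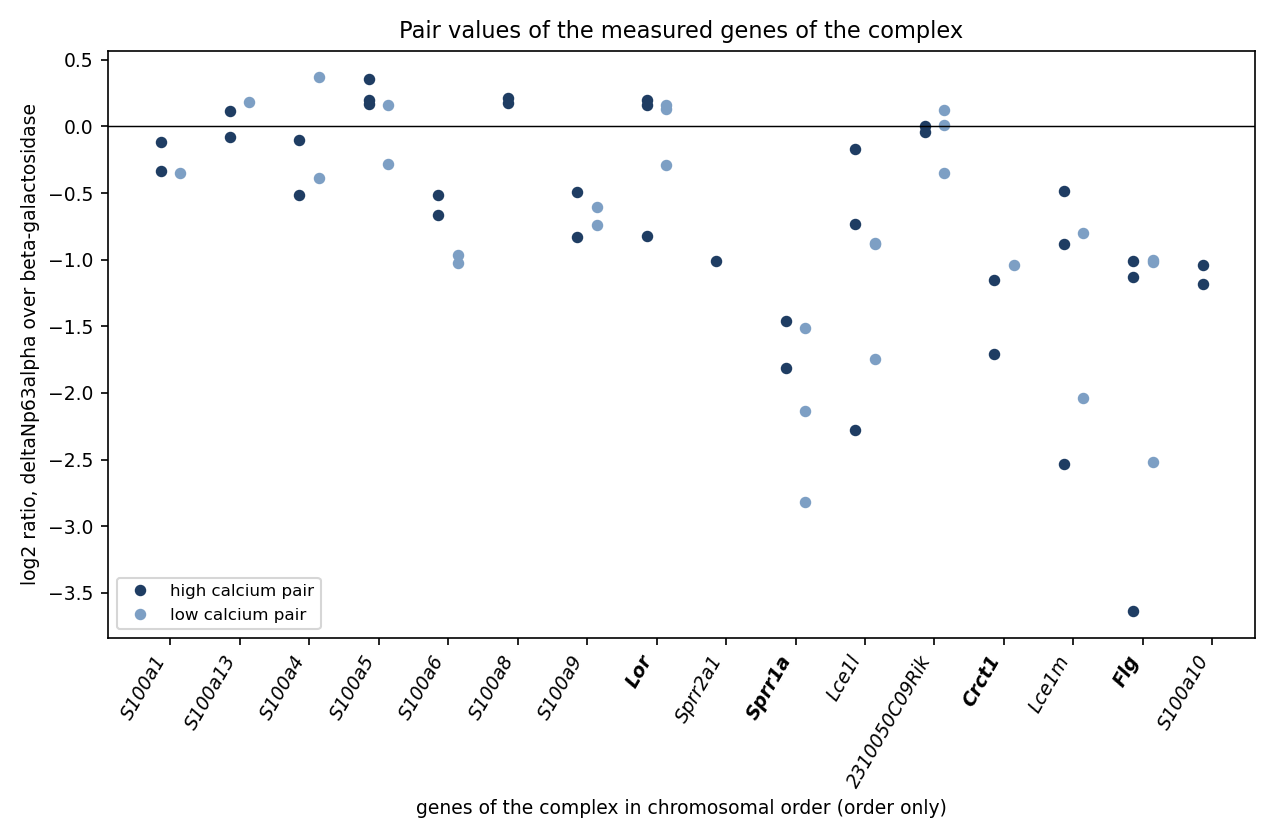
Pair log2 ratio of deltaNp63alpha over beta-galactosidase (vertical axis) of the 16 measured genes of the complex in chromosomal order without distances (horizontal axis), with high calcium pairs in dark and low calcium pairs in light blue. Sprr1a, Crct1, Lce1l, Lce1m and Flg are below 0 in every pair shown. So are S100a1, S100a6, S100a9 and S100a10, and Sprr2a1 in its only pair. Lor and 2310050C09Rik lie around 0 between genes that are lower.

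Among 8 measured genes of other envelope precursors and of the granular or suprabasal layers, 3 of 7 tested fell in high calcium and 2 of 5 in low calcium, against 0.84% and 0.387% of all rows called lower (list medians -0.76 and -0.51). Anxa1, a phospholipid-binding annexin, fell at both levels (-1.23 and -0.96; limma adjusted p = 0.00639 and 0.0277), as did Serpinb2, an inhibitor of plasminogen activators (-1.57 and -1.41; limma adjusted p = 0.00667 and 0.00376). Krt10, the keratin of suprabasal cells, fell in high calcium (-1.57; limma adjusted p = 0.00821) and was at -1.32 in its only low calcium pair. Ly6d (-0.76 in high calcium) and Pkp1, a desmosomal plakophilin (-0.30 in high and -0.51 in low calcium), were not called.

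Of 15 measured enzymes of envelope crosslinking, filaggrin processing and the lipid barrier, 2 of 14 tested fell in high calcium and 1 of 6 in low calcium, against 0.84% and 0.387% of all rows called lower (list medians -0.23 and -0.16). The kallikreins Klk7 (-1.73) and Klk5 (-1.69), proteases of the stratum corneum, fell in high calcium (limma adjusted p = 0.00861 and 0.0115). In low calcium Klk5 was at -0.94, below 0 in every pair, and was not called (limma adjusted p = 0.139). Klk7 was at -0.93 in its only low calcium pair. The lysosomal protease gene Ctsl fell in low calcium (-1.11; limma adjusted p = 0.0198) and was at -0.72 in high calcium without a call. Ctsd (-0.60) and Ugcg (-0.37), in high calcium, were not called.

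None of the 22 transcription factors of epidermal differentiation tested in high calcium, or of the 18 tested in low calcium, was called, and their medians were 0.16 and 0.15. Fosl2 (-0.73 in high and -0.17 in low calcium) and Fosl1 (0.30 and 0.60), both subunits of AP-1, were among those not called. Of basal keratinocyte genes, 2 of 9 tested fell in high calcium and 2 of 6 in low calcium, against 0.84% and 0.387% of all rows called lower. The list medians were -0.26 and -0.56. Below 0, called or not, were 5 of the 9 in high calcium (highest value 0.22) and 6 of the 6 in low calcium. The 2 calls were Itgb1 and Sdc1. They were the same genes at both levels: Itgb1, the beta-1 integrin (-0.93 and -1.25; limma adjusted p = 0.0314 and 0.0130), and the proteoglycan Sdc1 (-1.04 and -1.22; limma adjusted p = 0.0335 and 0.0277). Cdh3 (-0.52 and -0.64) and Cd44 (-0.33 and -0.48) were not called. Genes of the basal list and of the envelope were thus both among the falls. Most basal genes tested were not called. The same held at each level for the lists of other complex genes, other envelope precursors and enzymes.

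On the kept-sign reading none of these other called genes was lower past the threshold. In high calcium S100a10 was then at 0.39, S100a6 at 0.21, Anxa1 at 0.44, Serpinb2 at 0.29, Krt10 at -0.0269, Klk7 at 0.19, Klk5 at 0.23, Ctsl at 0.0429, Itgb1 at 0.49 and Sdc1 at 0.18, and none was called. In low calcium S100a6 (0.76; limma adjusted p = 0.0441) and Serpinb2 (0.72; limma adjusted p = 0.0365) were called higher. Anxa1 (0.47), Ctsl (0.39), Itgb1 (0.86), Sdc1 (0.98) and Klk5 (-0.18) were not called there, and Klk7 (-0.11) and Krt10 (0.0785) had 1 pair.

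Markers of other cell types were not called at either level. In high calcium this was 0 of 6 tested fibroblast, 0 of 2 melanocyte, 0 of 5 immune and 0 of 4 endothelial markers, by the limma fit of all rows, and in low calcium 0 of 4, 0 of 2, 0 of 4 and 0 of 4. Their medians lay between -0.0747 and 0.14 in high calcium and between -0.12 and 0.20 in low calcium. Eng was at -0.37 in high and -0.55 in low calcium, Kdr at 0.20 and 0.38 and Dct at 0.31 and 0.27, and Lyz2 was at 0.37 in low calcium with 1 high calcium pair at 0.23. Laptm5 was at -0.37 in high calcium, with 1 low calcium pair at 0.11. The values in high and low calcium were 0.27 and 0.13 for Col1a2, -0.22 and 0.20 for Dcn, and -0.0404 and 0.14 for Sox10. The part that a changed share of other cells has in these results was not tested.

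The genes with pair values most like those of each envelope gene were ranked by the root mean square difference over all of its complete pairs. For Flg, over 6 pairs and 1114 named genes, they were Lce1l (0.75 log2 units), Anxa1 (0.99) and Gsdmc2 (1.05), against a median of 2.01. For Sprr1a, over 5 pairs and 1673 genes, they were Flg (0.67), Serpinb2 (0.87) and Itgb1 (0.94), against a median of 2.05. Flg was thus nearest to Sprr1a, and a gene of the same complex was nearest to Flg. Only genes with a value in all of these pairs were compared. Sprr1a and Crct1 were therefore not candidates for Flg, nor was Crct1 for Sprr1a. For Crct1, over 3 pairs and 5207 genes, they were Cdkn1a (0.15), Anxa8 (0.17) and Endou (0.18), against a median of 1.36. None of these was a measured gene of the complex. For Lor, over 6 pairs, they were Usp47 (0.0988), Rit1 (0.12) and Tbrg4 (0.12), against a median of 0.49. Most rows lay near 0, so for Flg, Sprr1a and Crct1 the median largely reflects how far the gene itself lay from 0. Nearness to another gene that fell may therefore show no more than a fall of like size. All pair values share their arrays, so the likeness is a description of 12 hybridisations.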

How the data were processed

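The authors deposited 1 value per probe and array, a log2 ratio of the 2 dyes; the log base was taken as log2 from the range (-7.88 to 4.60), and the sources used here give neither the numerator dye nor how arrays were scanned, background-corrected, normalised or filtered. Labelling used a Genisphere kit, per the labels' protocols. Probes were named from the platform annotation: 7457 of 9558 had 1 symbol, 481 several and 1620 none; 7368 symbols were updated through the gene ID with RefSeq (GRCm38.p6). Arrays were centred on their median, probes averaged per symbol (8875 rows), and pair values, forward minus reversed divided by 2, fitted for both levels together with limma 3.58.1 (R 4.3.3; lmFit, eBayes; prior degrees of freedom 9.56, from which the 95% intervals also come). A level needed 2 complete pairs to be tested; Benjamini-Hochberg adjustment ran over all rows tested, called under 0.05.

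The 4 genes, the gene lists and the turned reading were chosen with earlier results of these data known. Named genes were those called in a list plus the 2 largest uncalled per list, Trp63, and the 3 most alike per envelope gene. Sprr2a1, 2310050C09Rik, S100a1, S100a4, S100a5, S100a8, S100a9 and S100a13 were named after their values were seen. The alternatives were kept signs, single orientations, arrays as replicates, incomplete pairs, scaling, centring, variance models, blocks, filters, probes and leaving out each pair. Repeat numbers were not taken to pair the calcium levels. Deviations of same-numbered repeats correlated at -0.0262, -0.11 and 0.20 over 1381 rows, and those of differently numbered repeats at -0.29 to 0.27. With 3 repeats per level, each set against its own mean, this cannot show that pairing is absent.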

Additional observations from a re-analysis of the deposited data

How the results depend on the processing

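The fall of Sprr1a, Flg and Crct1 kept its direction at both calcium levels under every alternative with a value except kept signs, apart from Flg in low calcium, which stayed just below 0 there. Kept signs gave 0 called rows in high calcium (1270 at an unadjusted p under 0.05) and 763 in low calcium, with high and low calcium values of 0.32 and 0.91 for Sprr1a, 0.34 and 0.0630 for Crct1, 0.29 and -0.0735 for Flg, and 0.44 for Lor in high calcium; high minus low was 0.37 for Flg, -0.58 for Sprr1a and 0.0629 for Lor. The cause of each change was not tested. The limits are 3 pairs per level, 3 sparse repeats and an unstated numerator dye.

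Counts of called rows were 101 in high and 19 in low calcium. They were 0 and 33 on forward arrays alone, 1 and 330 on reversed arrays alone, 16 and 3 with arrays as replicates, 0 and 0 with 1 array kept, 1 and 0 after scaling arrays to one spread, 0 and 0 under a trended, robust variance, 236 and 49 with each level alone, 14 and 4 with rows complete in all pairs (fewer rows tested), and 598 and 334 with the 3 well-filled pairs. By limma unadjusted, those counts of 0 had 1883, 555 and 585 rows under 0.05 in high calcium and 512, 272 and 401 in low calcium. With the repeat number as a replicate block low calcium had 59 calls and with the experiment ID run as a block 47; the difference between levels then had 2 and 1, and 2 with the well-filled pairs. The replicate block called Flg in low calcium (-1.51) and put Crct1 there at -1.59; it changed no other call of these genes.

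With 1 pair left out, calls ranged from 33 (without high calcium repeat 1) to 151 (without low calcium repeat 3) in high calcium and from 6 (without low calcium repeat 1) to 51 in low calcium, and from 0 to 1 for the difference. Flg ranged from -2.38 to -1.07 in high calcium and from -1.77 to -1.01 in low calcium, Crct1 from -1.71 to -1.15 in high calcium, Lor from -0.33 to 0.18 and from -0.0808 to 0.15, and high minus low from -0.92 to 0.44 for Flg, from 0.19 to 0.84 for Sprr1a and from -0.33 to 0.18 for Lor. Without high calcium repeat 1 or 2 all genes shared 1 variance, as with each level alone in low calcium and with the replicate block; there Flg in low calcium passed at -1.51.

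In high calcium the calls of Flg, Sprr1a and Crct1 were lost on forward arrays (-1.63, -1.23 and -1.09) and on reversed arrays (-2.22, -1.96 and -2.25), with 1 array kept (-1.93, -1.44 and -2.03), after scaling to one spread (-1.99, -2.35 and -2.06) and under the trended variance (-1.93, -1.63 and -1.43). With arrays as replicates Flg (-1.93) and Crct1 (-1.67) were lost and Sprr1a was not, and with complete rows Flg (-1.93). In low calcium Sprr1a was lost with 1 array kept (-2.15), after scaling (-1.99) and under the trended variance (-2.15). Crct1 in low calcium was at -2.23 on reversed arrays, -1.77 with arrays as replicates and -2.01 with 1 array kept, and passed at -1.04 with the well-filled pairs, as did Flg at -1.02. Lor reversed to 0.29 on forward arrays and 0.18 with the well-filled pairs in high calcium, and to -0.38 on reversed arrays in low calcium; its high minus low was 0.0494 with the well-filled pairs. That of Sprr1a reversed to -0.36 on the same spread and to -0.12 with the experiment ID block and with the well-filled pairs. The last 2 settings rest on the same pairs of Sprr1a.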

Other observations

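Of the 30 rows that were below 0 on every forward and above 0 on every reversed array, 26 had a gene name. Besides Flg, Sprr1a and Crct1 they included 3 of 8 other genes of the complex with enough arrays (Lce1m, S100a6 and S100a9), the envelope and granular layer list genes Anxa1 and Serpinb2 (2 of 5), and the protease genes Klk5 and Ctsl (2 of 8), against 0.613% of all such rows. Most of the 26, however, were in none of the gene lists. Those were Adamts1, Cav1, Ccn1, Cfdp1, Fgfbp1, Frmd8, Glyr1, Krt71, Mdm2, Mthfd2, Nfe2l1, Nktr, Slu7, Tmcc3, Tmem45a and Tor3a. No gene with this sign pattern was among 18 transcription factors of differentiation, 8 basal keratinocyte genes or the 5 fibroblast, 2 melanocyte, 5 immune and 4 endothelial markers. Lists this short would mostly hold none at a share of 0.613%, so these absences show no difference from all rows. The basal genes Itgb1 and Sdc1 were called lower at both levels without being among the 30 rows. The genes with the pattern were read off after their values were seen.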
